A study of Homo sapiens with 12 samples.

Results

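The difference between QGP-1 and BON-1 cells in the response to MUC1 silencing was measured in 12 RNA-seq libraries, which are all the libraries of the series. QGP-1 and BON-1 are established human lines from pancreatic neuroendocrine tumors, and both were transduced with a doxycycline-inducible hairpin against MUC1 (the tet-MUC1shRNA vector). Each line was treated with DMSO vehicle or with 500 ng/mL doxycycline (DOX), which turns the hairpin on, with 3 libraries in each of 4 groups. All 4 groups carry the vector and were selected in puromycin, QGP-1 cells grew in RPMI 1640 and BON-1 cells in DMEM/F-12, and no library with a control hairpin is among the 12, so an effect of DOX itself and an effect of the hairpin cannot be told apart. The joined tables held 28008 genes, of which 16598 passed the filter on low counts and were tested.

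MUC1 encodes a transmembrane mucin whose C-terminal subunit, MUC1-C, signals inside the cell and is known to act together with MYC and with inflammatory transcription factors. Hormone-secreting tumor cells of the pancreas store their products in granules with chromogranins, and also carry the interferon, hypoxia and stress programs of other epithelial cells. The quantity tested throughout is the DOX effect in BON-1 (the log2 fold change of DOX against vehicle) minus the DOX effect in QGP-1, called the difference here. A positive difference means that the DOX effect was higher in BON-1, whether the gene rose further there or fell less. Levels are library-size normalized counts (CPM) scaled by the TMM factor of each library. Unless another tool is named, p-values are from edgeR's quasi-likelihood test of this interaction with Benjamini-Hochberg adjustment over the 16598 genes, with calls at an adjusted p below 0.05, and measure the spread between the cultures of each group.

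The hairpin's target fell in both lines, and a difference between them was not detectable on the counts. MUC1 (GRCh38 chr1:155185824-155192916, minus strand) stood at 7.37, 5.95 and 5.79 CPM in the QGP-1 vehicle libraries and at 0.722, 1.07 and 0.762 CPM with DOX. In BON-1 it stood at 20.2, 20.1 and 15.00 CPM with vehicle and at 1.42, 2.60 and 3.93 CPM with DOX. In each line every DOX library lay below every vehicle library, and the DOX effects were −2.91 in QGP-1 and −2.78 in BON-1. The difference was 0.13 (standard error 0.34, 95% interval −0.58 to 0.84, adjusted p = 0.854). On the deposited TPM values (counts scaled by gene length to a fixed library total), where the median of all genes moved to −0.88, it was −1.51 and was called lower in BON-1 (limma, adjusted p = 4.17e-05). Depth was greater in QGP-1, at 38224144 to 50525926 counts a library, than in BON-1, at 15981954 to 28484324. Of 12 neuroendocrine markers, 12 reached 1 CPM in QGP-1 and 9 in BON-1, whereas 1 of 6 fibroblast markers did so in each line, and 0 of 4 endothelial markers in QGP-1 and 1 in BON-1. The summed levels of several marker sets moved with DOX without overlap of libraries. That of 6 acinar markers, which is nearly all PRSS1, ranged over 84.7–155 CPM with vehicle and 29.6–41.03 with DOX in QGP-1, and over 34.6–44.6 and 19.1–26.8 in BON-1. That of 5 immune markers, of which LYZ and CD68 reached 1 CPM, ranged over 10.8–13.2 and 17.3–21.6 in QGP-1 and over 24.98–27.5 and 51.2–55.4 in BON-1. The sum of 5 ductal markers was lower with DOX in QGP-1 (291–322 to 228–273) and higher in BON-1 (376–444.5 to 468–587). The fibroblast sum was lower in QGP-1 (1.86–3.75 to 1.17–1.35) and higher in BON-1 (5.02–6.47 to 10.4–11.1), where it is nearly all LUM, and the neuroendocrine sum was lower in BON-1 alone of the lines (11539–14942 to 9268–9645). That fall came from CHGA, whose BON-1 mean went from 7875 to 2870 CPM. In BON-1 the means of SCG2 (2621 to 3605), SCG3 (902 to 1093) and CHGB (545 to 604) rose. Those of PCSK1 (539 to 463), SNAP25 (156 to 122), INSM1 (620 to 603), SYP and ENO2 fell. The part of these shifts in the results below was not tested. In bulk RNA, a change in all cells and a change in the share of cells that express a gene cannot be told apart.

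The DOX effect differed between the lines for 2776 of the 16598 genes (16.7%). It was higher in BON-1 for 1461 genes (8.80%) and lower for 1315 (7.92%). With library totals in place of TMM factors the split of calls moved to 1123 higher and 1823 lower, and the share of higher calls from 52.6% to 38.1%. Most differences were moderate: the median absolute difference of the called genes was 0.63 on the log2 scale, 871 lay below 0.5 and 679 above 1. The median difference over all tested genes was −0.0023, with quartiles at −0.31 and 0.33.

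Genes that differed were mostly called in 1 line alone. By the within-line calls of the same fit, 375 of the 2776 genes (13.5%) moved in opposite directions, 1004 (36.2%) were called in QGP-1 alone and 1068 (38.5%) in BON-1 alone. A further 231 moved in the same direction by unequal amounts, and 98 were called in neither line. Among the 375, 157 rose in QGP-1 and fell in BON-1, and 218 fell in QGP-1 and rose in BON-1. When 1 library was dropped at a time, 124 of the opposite genes kept that pattern in all 12 fits. For 138 of the 157 and 179 of the 218, vehicle and DOX libraries did not overlap in either line. The same held for 219 of the 231 genes in the same direction and for 30 of the 98 called in neither line. It held for 84 of the 476 genes raised and 104 of the 528 lowered in QGP-1 alone. In BON-1 alone it held for 120 of the 554 raised and 121 of the 514 lowered. The share over all tested genes is not given here. Genes in the opposite and same directions were chosen by calls in both lines on the same libraries, so their lack of overlap is not separate support. Being called in 1 line does not by itself show that the other did not respond. In the other line the 95% interval of the DOX effect lay within ±0.5 for 392 of the 476 genes raised in QGP-1 alone and 368 of the 528 lowered there, and for 437 of the 554 raised and 382 of the 514 lowered in BON-1 alone. In the line with the call, the median DOX effects of these classes were 0.47, −0.59, 0.59 and −0.62. The margin of ±0.5 is near these sizes, so such an interval does not exclude a smaller response in the other line. Most calls were made on well expressed genes, since 2207 of the 2776 had a mean of at least 5 CPM in each line.

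**Figure D1:**
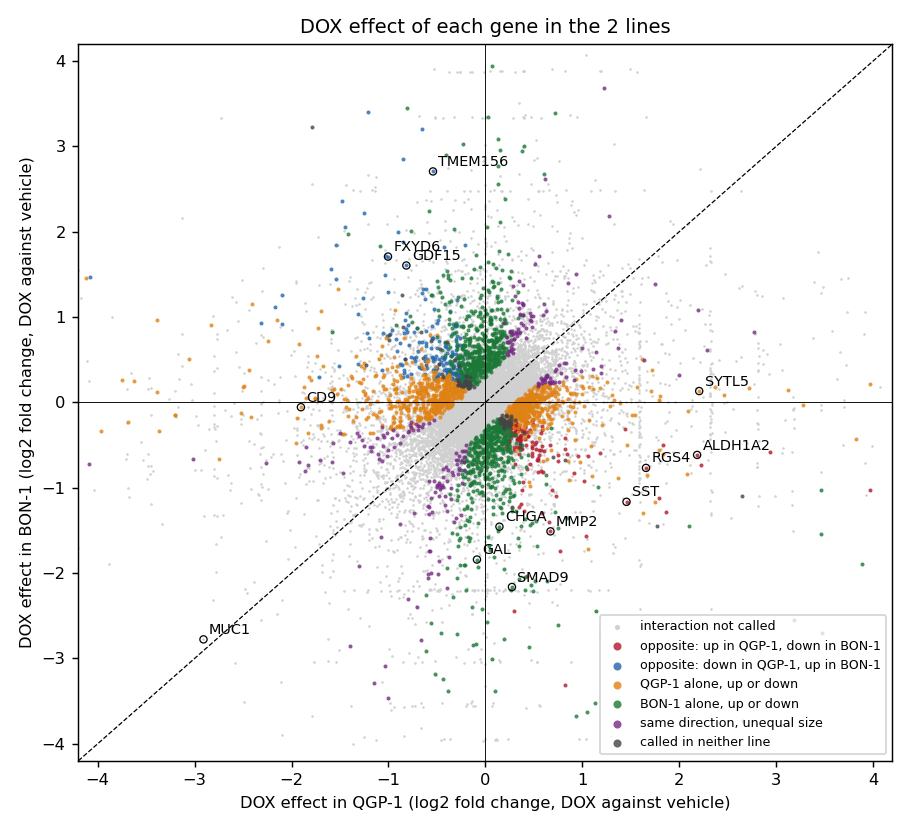
Each point is 1 of the tested genes, with its DOX effect in QGP-1 on the x axis and in BON-1 on the y axis, both as log2 fold changes of DOX against vehicle, and the dashed line marks equal effects. MUC1 lies on that line at the lower left, SST, RGS4, ALDH1A2 and MMP2 lie at the lower right, TMEM156, FXYD6 and GDF15 at the upper left, and 146 genes lie outside the axes.

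Among the genes that rose in QGP-1 and fell in BON-1, the 5 with the largest differences at 5 CPM or more in both lines were ALDH1A2, SST, RGS4, MMP2 and CASZ1. ALDH1A2, an enzyme that makes retinoic acid, lies at GRCh38 chr15:57953424-58497866. Its QGP-1 levels were 1.80, 1.52 and 2.52 CPM with vehicle and 9.41, 8.30 and 9.05 with DOX. Its BON-1 levels were 20.9, 20.3 and 21.6 with vehicle and 12.6, 14.8 and 13.6 with DOX. Vehicle and DOX libraries did not overlap in either line, and the lines lay closer to each other after treatment than before it, with a difference of −2.80 (standard error 0.22, adjusted p = 3.41e-09). SST, at chr3:187668912-187670394, encodes somatostatin, the peptide that holds back secretion of many other hormones. It stood at 107, 118 and 87.2 CPM with vehicle and 280.0, 287 and 287 with DOX in QGP-1. In BON-1 it stood at 9.75, 5.48 and 6.67 with vehicle and 3.10, 2.75 and 4.03 with DOX. No library overlapped between treatments in either line, and the difference was −2.62 (standard error 0.23, adjusted p = 1.51e-08).

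RGS4, at chr1:163068775-163076802, encodes a protein that shortens signaling by G protein-coupled receptors. In QGP-1 its level was 382, 319.7 and 374 CPM with vehicle and 1088, 1162 and 1143 with DOX. In BON-1 it was 50.6, 45.2 and 46.8 with vehicle and 26.8, 29.3 and 27.7 with DOX. The DOX effects were 1.66 and −0.77, and the difference of −2.42 had the smallest p of these 5 (standard error 0.12, adjusted p = 1.37e-12). MMP2, a secreted protease that cuts basement membrane collagen, was at 66.6, 70.4 and 54.9 CPM with vehicle and 103, 103 and 99.5 with DOX in QGP-1. BON-1 cells had it at 47.4, 39.3 and 36.4 and 13.3, 15.5 and 14.4, with a difference of −2.18 (adjusted p = 7.77e-10). CASZ1, a zinc finger transcription factor, had DOX effects of 0.65 in QGP-1 and −1.40 in BON-1 and a difference of −2.06 (adjusted p = 1.87e-07). ALDH1A2 and MMP2 overlap annotated antisense genes, and whether the authors counted by strand is not given in the sources used here.

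The 5 leading genes in the other direction were RNR2, TMEM156, FXYD6, RN7SL3 and GDF15. GDF15, at chr19:18374731-18389176, encodes a secreted stress-response cytokine. Its level was 806, 660.2 and 646 CPM with vehicle and 389, 432 and 378 with DOX in QGP-1. It was 302, 283 and 273 with vehicle and 909, 950.2 and 748 with DOX in BON-1. The lines changed places, since the vehicle level was higher in QGP-1 and the DOX level higher in BON-1, and the difference was 2.42 (standard error 0.13, adjusted p = 1.91e-11). FXYD6, a small regulator of the sodium pump at chr11:117836976-117877486, was at 13.2, 13.6 and 12.1 CPM and then 7.01, 5.77 and 6.58 in QGP-1. The level in BON-1 was 6.69, 5.48 and 6.57 and then 20.2, 20.4 and 20.6, a difference of 2.71 (adjusted p = 9.97e-10). A readthrough gene, FXYD6-FXYD2, overlaps it. TMEM156, a membrane protein of little known function at chr4:38966744-39032922, stood at 19.4, 19.8 and 27.5 CPM and then 18.01, 12.4 and 15.4 in QGP-1. Its BON-1 levels were 2.47, 3.28 and 2.51 with vehicle and 18.9, 16.6 and 18.4 with DOX. Most of its difference of 3.25 (adjusted p = 1.08e-09) came from BON-1, where the DOX effect was 2.71 against −0.54 in QGP-1.

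**Figure D2:**
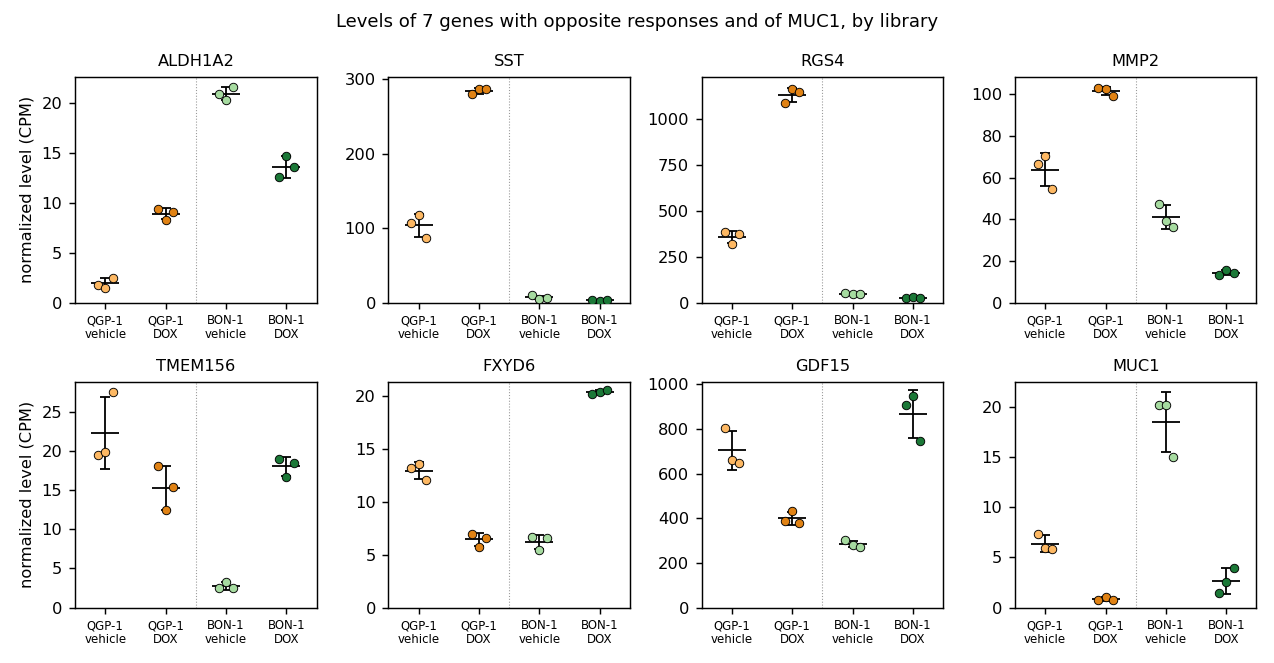
Normalized levels in CPM of 7 genes with opposite DOX effects and of MUC1, with 1 point for each of the 3 libraries of a group and the mean ± SD as a bar. ALDH1A2, SST, RGS4 and MMP2 are higher with DOX in QGP-1 and lower in BON-1, TMEM156, FXYD6 and GDF15 go the other way, and MUC1 is lower with DOX in both lines.

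RNR2, a mitochondrial ribosomal RNA, and RN7SL3, a copy of the signal recognition particle RNA, are structural RNAs and not messenger RNAs. RNR2 was at 180.3, 198 and 176 CPM with vehicle and 14.8, 18.98 and 88.99 with DOX in QGP-1. Its BON-1 libraries stood at 11.4, 15.9 and 23.9 with vehicle and 36.8, 31.8 and 40.7 with DOX. Its QGP-1 DOX libraries were uneven, with replicate 3 far above the others, and the difference was 3.29 (standard error 0.55, adjusted p = 0.000194). RN7SL3 had a difference of 2.49 (adjusted p = 0.000564), and its BON-1 libraries overlapped, from 25.9 to 75.3 CPM with vehicle and from 46.2 to 164 with DOX. RN7SL2, called in QGP-1 alone, had a difference of 1.67 (adjusted p = 0.00341). RN7SK, RPPH1 and RMRP, named after their values were seen, had differences of 1.28, 1.96 and 1.11. Together 8 such RNAs took 6.55% ± 0.605 (SD, n = 3) of all counts in vehicle-treated QGP-1 and 4.05% ± 0.733 (SD, n = 3) after DOX. In BON-1 they took 2.06% ± 0.550 (SD, n = 3) under vehicle and 3.11% ± 1.20 (SD, n = 3) after DOX. Of 221 small nucleolar and Cajal body RNAs tested, 20 had a higher DOX effect in BON-1 and 0 a lower one in edgeR, against 8.80% and 7.92% of all genes. The higher calls are thus near the share of all genes, while the median difference of these RNAs was 0.59. The part of the shift in structural RNAs in the results was not tested.

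Among genes at 5 CPM or more in both lines that rose in QGP-1 alone, SYTL5, MGC12916, DLL4 and EGR1 had the largest differences between the lines. SYTL5, a synaptotagmin-like protein of vesicle transport at chrX:38006553-38128819, was at 12.3, 11.3 and 10.3 CPM with vehicle and 55.3, 46.2 and 54.8 with DOX in QGP-1. Its BON-1 levels, at 27.6, 25.4 and 26.5 with vehicle and 27.99, 27.6 and 31.6 with DOX, met at the edge without overlap. The difference was −2.07 (standard error 0.15, adjusted p = 1.08e-09), and the DOX effect in BON-1 was 0.13 with a 95% interval from −0.085 to 0.35. DLL4, a ligand of NOTCH receptors, had DOX effects of 1.57 in QGP-1 and 0.19 in BON-1, where its level was already 78.3 to 100.3 CPM with vehicle against 11.7 to 14.9 in QGP-1. EGR1, an immediate early transcription factor, was at 26.1, 21.5 and 20.7 CPM with vehicle and 56.01, 59.8 and 52.9 with DOX in QGP-1. In BON-1 it was at 37.7, 36.05 and 32.1 and 39.9, 38.6 and 34.6, and the difference was −1.21 (adjusted p = 2.69e-06). MGC12916, a noncoding transcript, had a difference of −1.39 (adjusted p = 0.000761).

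Among genes of the same level that fell in QGP-1 alone, the largest differences, beside that of RN7SL2, were those of CD9, ERP27 and CREB3L1. CD9, a tetraspanin of the cell surface at chr12:6199715-6238271, was at 15.6, 18.2 and 18.6 CPM with vehicle and 5.18, 3.90 and 4.88 with DOX in QGP-1. BON-1 levels were 50.2, 63.3 and 49.2 with vehicle and 55.8, 51.3 and 49.4 with DOX, which overlapped. The difference was 1.85 (standard error 0.17, adjusted p = 4.3e-08), with a BON-1 effect of −0.056 (95% interval −0.29 to 0.18). ERP27, a chaperone-like protein of the endoplasmic reticulum, stood at 27.2, 28.1 and 28.1 CPM and then 9.66, 9.39 and 9.24 in QGP-1, with a difference of 1.71 (adjusted p = 1.26e-08). CREB3L1, a membrane-bound transcription factor of the secretory pathway, had DOX effects of −1.37 in QGP-1 and 0.28 in BON-1 and a difference of 1.65 (adjusted p = 6.72e-07). Its BON-1 effect was not called (edgeR, adjusted p = 0.0556). That effect had a 95% interval from 0.055 to 0.51, and the BON-1 libraries rose with DOX without overlap.

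Of the genes at 5 CPM or more in both lines that fell in BON-1 alone, SMAD9, GAL, ADGRL3 and CHGA differed most between the lines. SMAD9, a transcription factor of bone morphogenetic protein signaling at chr13:36844831-36920887, was at 25.2, 24.3 and 23.4 CPM with vehicle and 4.83, 5.09 and 6.30 with DOX in BON-1. In QGP-1 it was at 11.3, 14.8 and 12.9 with vehicle and 15.5, 16.5 and 15.1 with DOX. The difference was −2.44 (standard error 0.19, adjusted p = 2.79e-09), with a QGP-1 effect of 0.27 (95% interval 0.017 to 0.53). GAL, the neuropeptide galanin, stood at 23.4, 20.6 and 19.8 CPM and then 5.88, 6.62 and 5.34 in BON-1. Its QGP-1 levels overlapped, at 30.2, 33.5 and 29.3 with vehicle and 34.8, 26.9 and 25.8 with DOX, and the difference was −1.75 (adjusted p = 4.1e-07). CHGA, chromogranin A, the granule protein used as a marker of neuroendocrine cells, lies at chr14:92923150-92935285. It was at 9153, 6355 and 8117 CPM with vehicle and 2868, 3064 and 2679 with DOX in BON-1. In QGP-1 it was at 159, 153 and 143 and 159.7, 158 and 185, far lower in both treatments. The difference was −1.60 (standard error 0.15, adjusted p = 4.82e-08), and the QGP-1 effect of 0.14 had a 95% interval from −0.072 to 0.36. ADGRL3, an adhesion receptor of the latrophilin family, had a difference of −1.72 (adjusted p = 3.55e-08).

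Of those that rose in BON-1 alone, SCARNA5, STXBP5-AS1, PLCG2 and PRSS23 differed most. PRSS23, a serine protease at chr11:86791059-86952910, was at 31.6, 30.2 and 30.96 CPM with vehicle and 87.2, 84.9 and 83.4 with DOX in BON-1. In QGP-1 it was at 27.2, 26.1 and 27.8 with vehicle and 24.5, 24.1 and 24.6 with DOX. The difference was 1.61 (standard error 0.12, adjusted p = 1.08e-09), and the QGP-1 effect was −0.15 (95% interval −0.32 to 0.021). STXBP5-AS1, which is antisense to STXBP5, had a difference of 1.97 (adjusted p = 1.48e-07). PLCG2, a phospholipase of receptor signaling, had a difference of 1.87 (adjusted p = 0.0011), with QGP-1 DOX libraries at 8.68, 3.77 and 3.36 CPM, of which replicate 1 stood apart. The Cajal body RNA SCARNA5 ranged from 0.561 to 12.02 CPM in the BON-1 vehicle libraries and from 4.08 to 36.8 with DOX. Its call (difference 2.78, adjusted p = 0.0306) was lost in 5 of the 12 leave-one-out fits, in which 1 library is dropped at a time, namely those without QGP-1 vehicle replicate 3, BON-1 vehicle replicate 2 or 3, or BON-1 DOX replicate 1 or 2. For the other 7 genes named in these groups of BON-1 alone the call held in all 12.

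**Figure D3:**
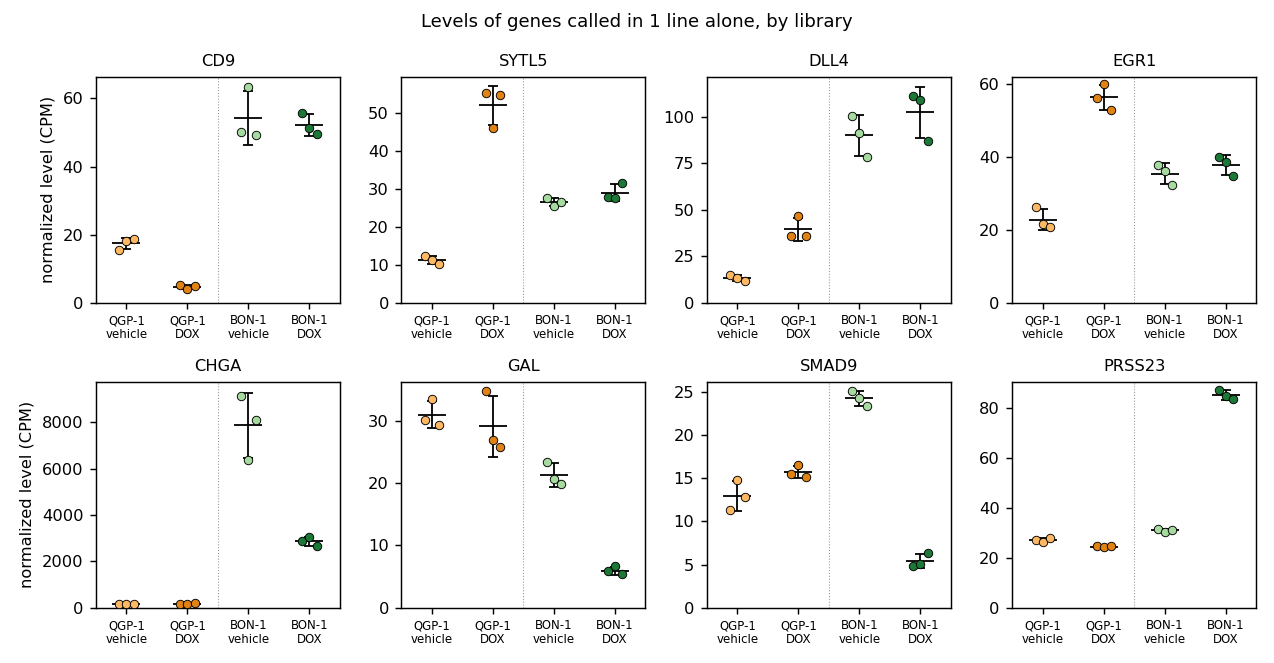
Normalized levels in CPM of 8 genes called in 1 line alone, with 1 point for each of the 3 libraries of a group and the mean ± SD as a bar. The DOX effects of CD9, SYTL5, DLL4 and EGR1 were called in QGP-1 alone, and those of CHGA, GAL, SMAD9 and PRSS23 in BON-1 alone. Vehicle and DOX libraries also do not overlap in the other line for SYTL5, SMAD9 and PRSS23.

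Genes that moved in the same direction differed in size. TPH1, the enzyme that starts serotonin synthesis, was at 768, 738 and 819 CPM with vehicle and 647, 540.0 and 574 with DOX in QGP-1. BON-1 cells had it at 1822, 1652 and 1680.2 with vehicle and 359, 373 and 407 with DOX. It fell in both lines, by 0.40 in QGP-1 and 2.18 in BON-1 on the log2 scale, with a difference of −1.78 (adjusted p = 3.15e-10). ADAMTS9, a matrix protease, rose by 2.002 in QGP-1 and 0.33 in BON-1 (difference −1.68, adjusted p = 6.82e-09). NXPE2 and PCDHB2, a protocadherin, rose further in BON-1, with differences of 1.997 and 1.16 (adjusted p = 0.000168 and 0.000334).

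A smaller set of calls rests on genes that 1 line barely expresses. Of 1401 genes under 1 CPM in QGP-1 and at least 1 CPM in BON-1, 131 were called, as were 85 of 1032 in the converse class. Both shares lie below the 16.7% called of all genes. Fitted effects of such genes depend on the prior count, so their raw counts are given. NOSTRIN, a regulator of nitric oxide synthase, had 11, 11 and 24 counts with vehicle and 0, 0 and 1 with DOX in QGP-1. In BON-1 it had 36, 29 and 45 and 61, 46 and 66. SLC6A19, an amino acid transporter, had 52, 29 and 52 counts and then 8, 5 and 3 in BON-1, against 0, 0 and 0 and 0, 3 and 2 in QGP-1 (the call was lost without QGP-1 DOX replicate 2 or QGP-1 DOX replicate 3). CX3CL1, a chemokine, had 0, 0 and 0 and 9, 0 and 2 in QGP-1, so its rise there rests on DOX replicate 1, and the call held in 8 of the 12 leave-one-out fits. FGFBP1, a carrier of fibroblast growth factors, had 564, 466 and 644 counts with vehicle and 92, 97 and 162 with DOX in QGP-1. In BON-1 it had 0, 0 and 0 and 0, 4 and 0, so only the fall in QGP-1 can be measured. The same holds for NAV3, a guidance-related gene, with 184, 149 and 133 and 10, 36 and 34 counts in QGP-1 and 0, 0 and 0 and 0, 4 and 0 in BON-1. CES3, a carboxylesterase, had 16, 9 and 11 counts with vehicle and 0, 0 and 0 with DOX in BON-1, against 35, 68 and 61 and 40, 46 and 44 in QGP-1.

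Of 30 gene lists, the interferon effector genes had the lowest median difference. On the TPM values all 30 lists had more lower than higher calls. These genes encode the antiviral proteins whose transcription interferon receptors switch on. Of 36 tested, 16 had a lower DOX effect in BON-1 and 1 a higher one, against 7.92% and 8.80% of all genes, with a median difference of −0.97. The median DOX effect of the list was −0.07 in QGP-1 and −0.92 in BON-1, where 12 fell alone. Many of them are barely expressed in QGP-1, and of the 14 that reached 1 CPM in both lines 9 were lower and 0 higher, with a median difference of −0.56. Relative to all genes, the list's median stayed below 0 in all 21 alternatives, among them library totals, DESeq2, the TPM values and leaving out each library. IFI6, a mitochondrial interferon-induced protein, had 1735, 1578 and 921 counts with vehicle and 97, 100 and 58 with DOX in BON-1. Its QGP-1 counts were 9, 19 and 8 and 43, 18 and 9, at or near the counting floor. IFI44L had 24, 17 and 23 counts in the BON-1 vehicle libraries and 0, 4 and 0 with DOX. IFI27 and EPSTI1, also among the largest calls of the list, rest on at most 7 and 10 counts in any QGP-1 library, and the calls of IFI27, IFI44L and EPSTI1 were lost in 4, 8 and 8 of the 12 leave-one-out fits.

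Further genes of this program are described next, and ISG15, MX1, SAMD9 and DDX60 among them were chosen after their values were seen. IRF9, a transcription factor of the interferon response, was at 84.2, 103 and 95.7 CPM with vehicle and 34.2, 48.8 and 33.97 with DOX in BON-1. Its QGP-1 libraries overlapped, at 8.39, 5.65 and 7.36 with vehicle and 9.70, 7.02 and 9.03 with DOX, and the difference was −1.55 (adjusted p = 1.32e-05). SAMD9, a restriction factor whose vehicle libraries overlapped between the lines, was at 50.8, 46.3 and 46.98 CPM and then 53.8, 58.3 and 58.3 in QGP-1. Its BON-1 libraries stood at 40.9, 48.8 and 49.1 and then 21.98, 22.1 and 18.1, a difference of −1.40 (adjusted p = 1.6e-07). ISG15, a ubiquitin-like modifier, had a difference of −1.46 (adjusted p = 6.8e-05) and stood at 37.00, 51.7 and 54.2 CPM and then 20.4, 22.7 and 15.1 in BON-1. MX1, a dynamin-like antiviral protein, had a difference of −2.999 (adjusted p = 2.35e-05) and fell in BON-1 from 2120, 2413 and 1879 counts to 131, 199 and 166. DDX60, a helicase of the antiviral response, had a difference of −2.45 (adjusted p = 0.000136) and stood at 21.04, 26.7 and 24.1 CPM and then 1.86, 2.80 and 1.81 in BON-1, while no QGP-1 library reached 1 CPM. Of the 25 sensing and signaling genes, 5 had a lower and 3 a higher DOX effect in BON-1, a share of 32% called against 16.7% of all genes. The median difference was −0.19. DDX58, the RNA sensor RIG-I, was among the former at −1.44 (adjusted p = 6.68e-07) and SOCS3, a feedback inhibitor of cytokine receptors, among the latter at 1.02 (adjusted p = 0.0225, and the call was lost without QGP-1 vehicle replicate 1 or BON-1 vehicle replicate 3).

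The promoters of these genes are shown because most of the list shares a short element. The core of the interferon-stimulated response element, searched as GAAANNGAAA on both strands in the 300 bases from 250 before to 50 after each gene's start in RefSeq (GRCh38.p14), was found in 23 of the 30 effector genes with an entry (76.7%). It was found in 996 of all 27305 promoters (3.65%), and in 7 of 15 genes of MHC class I presentation. Of all genes called lower in BON-1 with an entry, 50 of 1019 (4.91%) held it, against 26 of 1096 (2.37%) called higher and 271 of 9774 (2.77%) not called. The genes called lower include those of the interferon effector list, so this comparison is not separate from the list. Within the list the core was also found in genes that were not called, among them CXCL10, IFIT1, IFITM1, IFITM3 and BST2. It was not found in RSAD2, PARP9 and HERC6, which were called lower. A match is a description of the letters and not of binding. The 120 bases before the start of 3 genes with a lower DOX effect in BON-1 follow, 5′ to 3′ on the gene's strand, with each match in capitals.
ISG15, chr1:1013377-1013496, plus strand: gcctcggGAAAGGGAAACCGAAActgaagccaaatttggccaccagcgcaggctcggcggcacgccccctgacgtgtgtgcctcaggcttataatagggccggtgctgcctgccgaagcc
IFI6, chr1:27672193-27672312, minus strand: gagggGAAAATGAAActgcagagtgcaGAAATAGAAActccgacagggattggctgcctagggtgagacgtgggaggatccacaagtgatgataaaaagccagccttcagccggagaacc
DDX60, chr4:168318753-168318872, minus strand: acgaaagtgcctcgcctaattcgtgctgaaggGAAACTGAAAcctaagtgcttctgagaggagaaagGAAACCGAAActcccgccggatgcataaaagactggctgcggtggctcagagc
ISG15 holds 2 overlapping matches, and IFI6 and DDX60 hold 2 separate ones each.

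**Figure D4:**
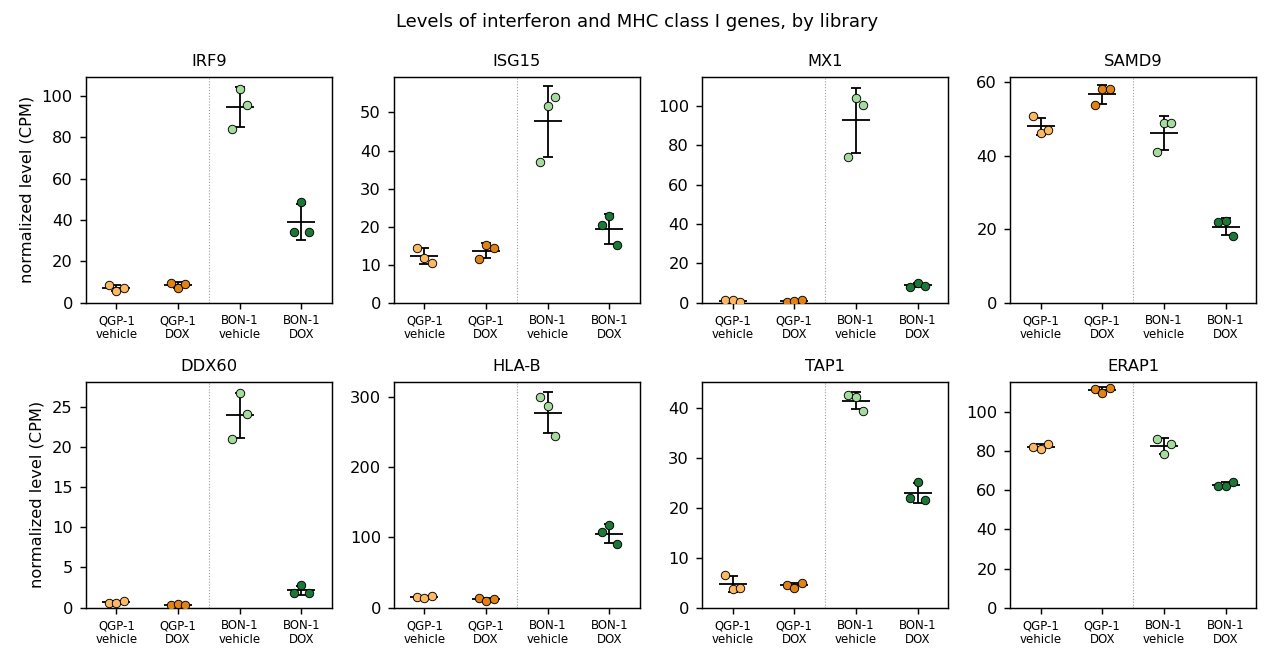
Normalized levels in CPM of 5 interferon genes and 3 genes of MHC class I presentation, with 1 point for each of the 3 libraries of a group and the mean ± SD as a bar. All 8 are lower with DOX in BON-1 without overlap of libraries, and only SAMD9, ERAP1 and DDX60 have QGP-1 libraries that do not overlap, with DOX above vehicle for SAMD9 and ERAP1 and below it for DDX60.

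Genes of MHC class I presentation load peptides onto the molecules that T cells read. Of 19 tested, 10 had a lower DOX effect in BON-1 and 0 a higher one, against 7.92% and 8.80% of all genes. The median difference was −0.46, with medians of 0.00 in QGP-1 and −0.48 in BON-1. HLA-B was at 299.9, 287 and 244 CPM with vehicle and 107, 117 and 91.1 with DOX in BON-1. In QGP-1 it was at 14.6, 14.04 and 16.95 and 14.2, 9.67 and 12.3, with DOX effects of −0.33 there and −1.40 in BON-1 (difference −1.07, adjusted p = 7.34e-05). Reads of HLA genes can be shared among near-identical copies, which leaves the split between them uncertain. ERAP1, which trims peptides, rose in QGP-1 by 0.44 and fell in BON-1 by 0.39 on the log2 scale (difference −0.83, adjusted p = 4.09e-06). TAP1, a peptide transporter, had a difference of −0.79 (adjusted p = 0.0187), and this call was lost without QGP-1 vehicle replicate 2 or 3. PSMB9, an immunoproteasome subunit, had a difference of −2.91 (adjusted p = 0.000761) but at most 0.357 CPM in QGP-1. Of 21 NF-kB and cytokine genes 3 had a higher DOX effect in BON-1 and 0 a lower one, a share of 14.3% called against 16.7% of all genes, and the list median relative to all genes turned to −0.007 without QGP-1 vehicle replicate 1. CXCL8, the neutrophil chemokine interleukin 8, was one of them at 1.06 (adjusted p = 0.0025), from 115, 152 and 151 CPM with vehicle to 274, 252 and 256 with DOX in BON-1 and 2.72, 3.49 and 3.16 to 1.85, 2.60 and 4.05 in QGP-1. BIRC3 and SOD2 were the others, at 0.81 and 0.41 (adjusted p = 0.00333 and 0.0266), and for SOD2 the call held in 6 of the 12 leave-one-out fits.

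Of 26 neuroendocrine markers, 7 had a lower DOX effect in BON-1 and 1 a higher one, against 7.92% and 8.80% of all genes, and 18 were not called. The median difference was −0.35. The marker called higher, which is not named here, fell in QGP-1 and rose in BON-1. CHGA and TPH1 are described above. SSTR2, the somatostatin receptor targeted in the clinic, was at 1.53, 0.996 and 1.69 CPM with vehicle and 8.39, 6.27 and 5.10 with DOX in QGP-1. In BON-1 it was at 5.23, 4.96 and 5.50 and 1.61, 3.72 and 3.98, with DOX effects of 2.22 and −0.73 and a difference of −2.96 (adjusted p = 9.45e-06). DDC, the decarboxylase that finishes serotonin and dopamine synthesis, was at 47.8, 46.5 and 48.7 CPM and then 97.1, 88.03 and 83.7 in QGP-1. BON-1 levels were 89.4, 83.4 and 78.6 and then 52.6, 48.3 and 41.4, with no overlap in either line and a difference of −1.73 (adjusted p = 1.25e-09). Among 10 hormone and neuropeptide genes 30% were called, against 16.7% of all genes. SST and GAL had a lower DOX effect in BON-1, and ADM, adrenomedullin, a higher one at 1.11 (adjusted p = 0.000925).

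Immediate early genes are the first to answer to growth factors. Of 28 immediate early genes, 9 had a lower and 5 a higher DOX effect in BON-1, a share of 50% called against 16.7% of all genes. In QGP-1 alone 6 rose, and the medians were 0.33 in QGP-1 and 0.15 in BON-1. DUSP1, a phosphatase that shuts off MAP kinases, rose in QGP-1 by 1.11 (difference −0.95, adjusted p = 0.000259). DUSP5, another one, went the other way, from 212, 197 and 187 CPM with vehicle to 414, 441 and 420.2 with DOX in BON-1, with a difference of 0.93 (adjusted p = 1.33e-06). IER2 rose in QGP-1 by 0.35 and fell in BON-1 by 0.40 on the log2 scale. Of 29 genes of TGF-beta, BMP and ID proteins, 7 had a lower and 4 a higher DOX effect in BON-1, a share of 37.9% called. ID1 and ID3, inhibitors of basic helix-loop-helix transcription factors, moved in opposite directions. ID1 was at 23.1, 20.1 and 23.3 CPM with vehicle and 40.7, 56.3 and 54.4 with DOX in QGP-1. BON-1 cells had it at 194, 162 and 171 and 124, 127 and 98.4, and the difference was −1.78 (adjusted p = 2.73e-08). ID3 had DOX effects of 1.06 and −0.63 and a difference of −1.68 (adjusted p = 1.03e-08). TGFB2, a ligand of the family, was at 11.7, 10.1 and 9.07 CPM with vehicle and 61.9, 62.4 and 74.2 with DOX in BON-1, while no QGP-1 library reached 1 CPM. Its difference of 2.08 (adjusted p = 0.0092) was lost without QGP-1 vehicle replicate 1.

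NOTCH and WNT genes held calls in both directions. Of 26 NOTCH pathway genes 5 had a lower and 2 a higher DOX effect in BON-1, a share of 26.9% called against 16.7% of all genes. The higher calls are near the 8.80% of all genes, and the median difference was −0.29. DLL3, a NOTCH ligand of neuroendocrine tumors, fell in BON-1 by 1.01 on the log2 scale (difference −1.22, adjusted p = 2.35e-05), and HES6 had a difference of −0.92 (adjusted p = 0.0169). DTX1 had a difference of −2.31 (adjusted p = 0.0106), with 34, 24 and 30 counts and then 7, 2 and 0 in BON-1. Of 21 WNT feedback genes 3 were lower and 4 higher, a share of 33.3% called. DKK1, a secreted WNT inhibitor, was at 11.8, 12.6 and 12.5 CPM with vehicle and 64.2, 61.1 and 64.7 with DOX in BON-1, and had 13, 12 and 12 counts and then 6, 1 and 6 in QGP-1 (difference 3.84, adjusted p = 5.99e-07). NKD1 was among the lower at −1.33, and LEF1 and LGR5 among the higher at 0.71 and 0.63 (adjusted p = 0.0149, 0.0143 and 0.0227). For NKD1 the call was lost without QGP-1 DOX replicate 2, for LEF1 the call was lost without QGP-1 vehicle replicate 2, and for LGR5 the call held in 7 of the 12 leave-one-out fits.

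**Figure D5:**
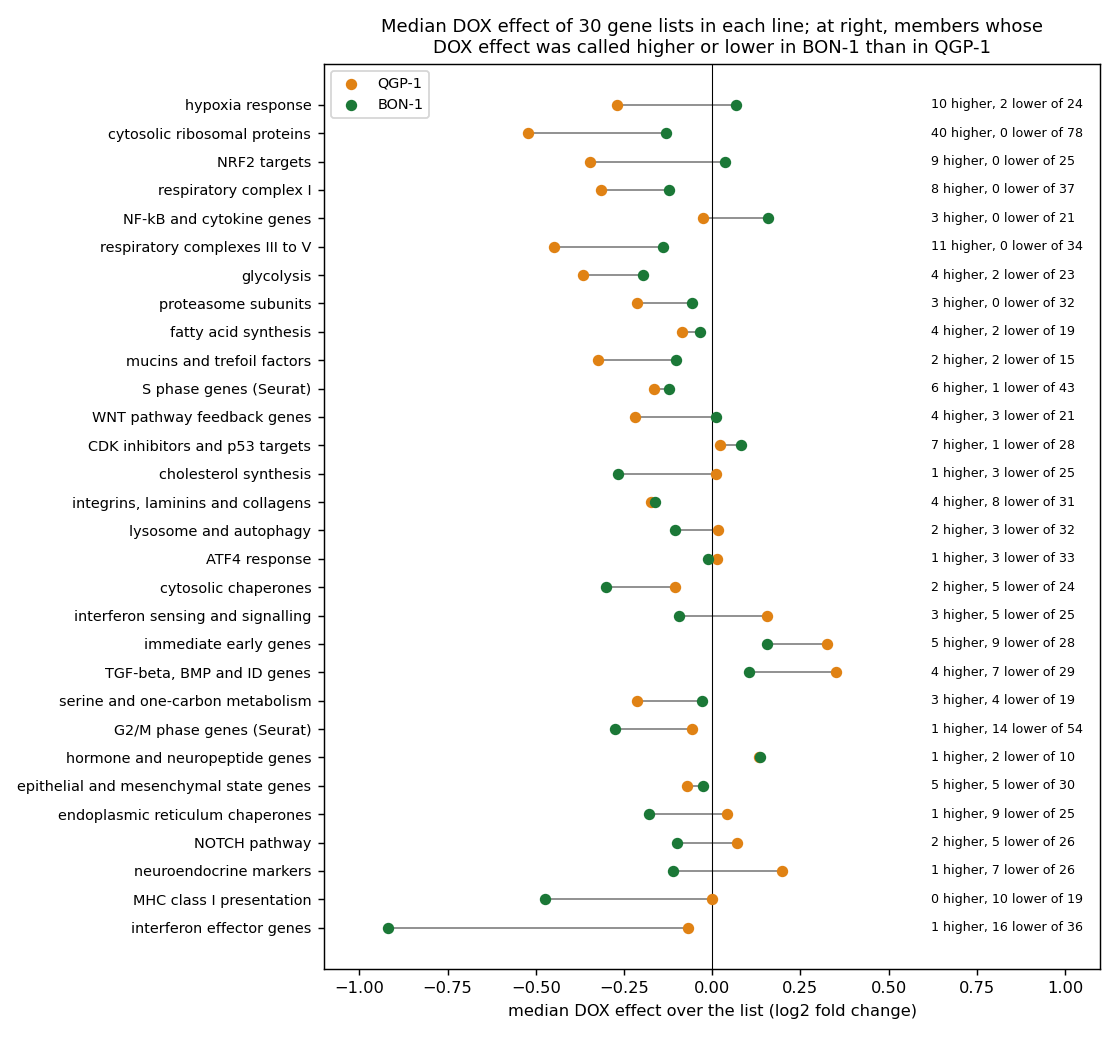
Median DOX effect, as a log2 fold change of DOX against vehicle, of each of 30 gene lists in QGP-1 (orange) and BON-1 (green), ordered by the median over genes of the difference between the lines. The text at the right counts the members with a called difference, from 10 higher and 2 lower of 24 hypoxia genes at the top to 1 higher and 16 lower of 36 interferon effector genes at the bottom.

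Cytosolic ribosomal proteins, the longest list, had the most calls of any list. The share called was 51.3%, against 52.6% in the list of MHC class I presentation and 16.7% of all genes. Of 78 tested, 40 had a higher DOX effect in BON-1 and 0 a lower one by edgeR, against 8.80% and 7.92% of all genes. By DESeq2 the counts were 43 and 0. The median difference was 0.39, whereas on the TPM values 0 were higher and 27 lower, all genes being shifted by −0.88 there. Relative to that shift the list's median stayed above 0 in all 21 alternatives. The median DOX effect was −0.52 in QGP-1 and −0.13 in BON-1, and 34 fell in QGP-1 alone. RPS3A was at 901, 981 and 1131 CPM with vehicle and 559, 519.7 and 609.6 with DOX in QGP-1. The level in BON-1 was 513, 729 and 698 and 891, 730.5 and 902, with a vehicle replicate 1 below the others and a difference of 1.22 (adjusted p = 8.02e-06). RPS18, RPL9 and RPS6 followed, with differences of 1.03, 0.98 and 0.90 (adjusted p = 8.77e-05, 0.000115 and 0.00058). All 78 genes have annotated pseudogenes, 1584 in total, and how shared reads were counted is not given in the sources used here.

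The respiratory chain of mitochondria pumps protons and drives ATP synthase. Of 37 complex I subunits 8 had a higher and 0 a lower DOX effect in BON-1, against 8.80% and 7.92% of all genes. Of 34 subunits of complexes III to V 11 were higher and 0 lower. The median differences were 0.29 and 0.24. The complex I count was 5 higher with library totals or with TMM within each line, and 10 higher and 1 lower without a filter. On the TPM values 18 of either group were called lower and 0 higher. Relative to all genes, the medians of both groups stayed above 0 in all 21 alternatives. NDUFB5 and NDUFS4 of complex I had differences of 0.76 and 0.69 (adjusted p = 0.000428 and 0.00207). COX7B and COX7A2 of cytochrome oxidase had 0.81 and 0.66 (adjusted p = 0.00735 and 0.000919), and ATP5C1 of ATP synthase 0.64 (adjusted p = 0.00216). The calls of NDUFC2 and NDUFB9 were lost in 4 and 8 of the 12 leave-one-out fits, and for ATP5L the call was lost without BON-1 vehicle replicate 1 or BON-1 DOX replicate 1. Of 32 proteasome subunits 3 had a higher and 0 a lower effect, near the 8.80% of all genes called higher, and after thinning 2 and 1, among them PSMA5 and PSMA2 at 0.61 and 0.43, with a median of 0.13 that turned to −0.06 relative to all genes on the TPM values.

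Transcript length moved with the sign of the difference. Among 15132 genes with a length in GENCODE v44 (91.2%), the median difference was 0.09 in the 25% of genes with the shortest transcripts, up to 2324 bases for the longest transcript of a gene, and −0.07 in the 25% with the longest, from 5601 bases. Among the shortest 9.72% of genes had a higher and 3.57% a lower effect in BON-1, and among the longest 8.51% and 14.0%. For 267 genes under 1000 bases at 5 CPM or more, with ribosomal proteins left out, the median was 0.17, with 19.5% higher and 5.99% lower. The part of length and of the structural RNAs in the ribosomal and respiratory calls was not tested.

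Of 24 hypoxia response genes, 10 had a higher and 2 a lower DOX effect in BON-1, against 8.80% and 7.92% of all genes. The lower calls are near that share. The median difference was 0.44, whereas on the TPM values 0 genes were higher and 6 lower of 19. The median of all genes was shifted by −0.88 there. Relative to all genes, the median of the hypoxia list stayed above 0 in all 21 alternatives. EGLN3, an oxygen-sensing prolyl hydroxylase, was at 17.4, 19.8 and 14.8 CPM with vehicle and 6.77, 6.09 and 6.29 with DOX in QGP-1. Its BON-1 libraries stood at 59.6, 53.9 and 55.6 and 58.6, 51.5 and 53.1, which overlapped, and the difference was 1.38 (adjusted p = 8.54e-07). CA9, a carbonic anhydrase, was at 81.7, 74.9 and 64.01 CPM and then 47.9, 50.6 and 35.7 in BON-1 but had 16, 7 and 2 counts and then 0, 1 and 0 in QGP-1. Its call, and that of LOX, were each lost in 8 of the 12 leave-one-out fits. Of 23 glycolysis genes 4 were higher and 2 lower, and the lower calls are again near the share of all genes. HK2, the hexokinase that starts glycolysis, was at 68.4, 72.6 and 59.6 CPM and then 36.6, 41.1 and 34.6 in QGP-1. In BON-1 it was at 152, 131 and 131 and then 232, 259 and 238, with no overlap in either line and a difference of 1.65 (adjusted p = 1.76e-09). SLC16A1, a lactate transporter, went the other way at −0.94 (adjusted p = 6.81e-07). SLC2A1, a glucose transporter, was higher at 0.55 (adjusted p = 0.00232), and PGAM1 fell in both lines and further in BON-1 (difference −0.50, adjusted p = 0.000982).

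Of 25 targets of NRF2, the transcription factor of the oxidative stress response, 9 had a higher and 0 a lower DOX effect in BON-1. Of all genes, 8.80% and 7.92% did so. The median difference was 0.31, with medians of −0.35 in QGP-1 and 0.04 in BON-1. On the TPM values 0 were higher and 11 lower of 24. Relative to all genes, the median of these targets stayed above 0 in all 21 alternatives. AKR1C2, an aldo-keto reductase, was at 133, 126 and 151 CPM with vehicle and 59.8, 43.3 and 46.4 with DOX in QGP-1. BON-1 levels were 16.7, 16.7 and 13.8 and 16.04, 14.6 and 17.9, and the difference was 1.49 (adjusted p = 1.12e-06). AKR1C1 and AKR1C3 had differences of 1.45 and 1.14 (adjusted p = 5.12e-06 and 6.41e-06), but the 3 genes are close paralogs whose reads may be split uncertainly. ABCC3, a drug and conjugate exporter, had a difference of 1.26 (adjusted p = 2.1e-06), with a DOX effect of −1.21 in QGP-1 and 0.053 in BON-1.

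Chaperones of the endoplasmic reticulum fold secreted proteins. Their list also holds regulators that are not chaperones, among them ERN1 and the transcription factor CREB3L1. Of 25 genes tested, 9 had a lower DOX effect in BON-1 and 1, CREB3L1, a higher one, against 7.92% and 8.80% of all genes. The median difference was −0.28. HSPA5, the chaperone BiP, was at 467, 439 and 497 CPM with vehicle and 774, 668 and 639.9 with DOX in QGP-1. BON-1 cells had it at 683, 604 and 621 and 489, 548 and 453, with no overlap in either line, and the difference was −0.93 (adjusted p = 9.96e-06). HYOU1 also moved in opposite directions (difference −0.73, adjusted p = 7.92e-05), and ERN1, a stress sensor of this compartment, rose in QGP-1 alone (difference −0.65, adjusted p = 0.000186). Of 24 cytosolic chaperones 5 were lower and 2 higher, a share of 29.2% called, with the higher calls near the share of all genes. HSPA1B and DNAJA1 stood at −0.66 and −0.60 (adjusted p = 0.00192 and 0.000964). AHSA1 stood at −0.50 (adjusted p = 0.0172), and its call was lost without QGP-1 DOX replicate 2, BON-1 vehicle replicate 1 or BON-1 DOX replicate 3. HSPB1, which fell less in BON-1, stood at 0.92 (adjusted p = 0.000128). HSPA1B has a near-identical copy, HSPA1A, so its count is uncertain.

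The cell cycle lists are those of the Seurat package. Of 54 G2/M genes 14 had a lower and 1 a higher DOX effect in BON-1, and 10 fell in BON-1 alone. The share called was 27.8%, against 16.7% of all genes. Of 43 S phase genes 1 was lower and 6 higher, a share of 16.3% called, which is near that of all genes. LBR, a receptor of the inner nuclear membrane, was at 289.7, 261 and 266 CPM with vehicle and 130.5, 129 and 129 with DOX in BON-1. Its QGP-1 levels were 81.7, 81.2 and 90.3 and 72.8, 79.5 and 71.2, and the difference was −0.89 (adjusted p = 2.03e-06). CENPF, a kinetochore protein, rose in QGP-1 alone by 0.59 (difference −0.80, adjusted p = 0.0003), while CDC20 and UBE2C of the anaphase machinery fell in BON-1 alone (differences −0.62 and −0.62, adjusted p = 0.0247 and 0.00492), and for CDC20 the call was lost without QGP-1 vehicle replicate 3, QGP-1 DOX replicate 2 or BON-1 DOX replicate 3. Among S phase genes, CCNE2, cyclin E2, and GMNN, geminin, fell in QGP-1 alone, with differences of 0.67 and 0.61 (adjusted p = 0.00331 and 0.00315), and CENPU rose in BON-1 alone at 0.47. UNG, at 0.49, kept its call in 3 of the 12 leave-one-out fits. The S phase median of 0.11 turned to −0.05 relative to all genes on the TPM values. Of 28 CDK inhibitors and p53 targets 7 were higher and 1 lower, against 8.80% and 7.92% of all genes. GDF15 came first, then CDKN1C, GADD45B and the death receptor TNFRSF10B at 1.53, 1.12 and 0.83 (adjusted p = 0.0378, 0.0168 and 7.63e-05). The call of CDKN1C was lost in 9 of the 12 leave-one-out fits.

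Epithelial and mesenchymal genes moved in both directions, with 5 of 30 lower and 5 higher, a share of 33.3% called against 16.7% of all genes. FN1, fibronectin, was at 0.968, 0.427 and 0.165 CPM with vehicle and 4.63, 5.54 and 2.76 with DOX in QGP-1. The level in BON-1 was 223, 188 and 203 and 217, 238 and 223, far higher and overlapping, and the difference was −2.98 (adjusted p = 1.1e-06). VIM, vimentin, had 0, 0 and 0 counts and then 1, 1 and 11 in QGP-1, a rise that rests on replicate 3, and the call held in 4 of the 12 leave-one-out fits. KRT19, an epithelial keratin, rose in BON-1 alone (difference 1.001, adjusted p = 0.00201). Of 31 integrins, laminins and collagens 8 were lower and 4 higher. ITGB6 was at 51.4, 50.1 and 58.5 CPM and then 26.9, 27.8 and 29.6 in QGP-1. Its BON-1 libraries stood at 4.35, 4.92 and 4.75 and then 9.66, 6.21 and 7.71, a difference of 1.67 (adjusted p = 1.16e-06). LAMA3, a laminin chain, rose in BON-1 from 42.5–48.8 to 104–119 CPM (difference 2.29, adjusted p = 0.000249) and was under 1 CPM in QGP-1. ITGA5 fell in QGP-1 alone (difference 1.73, adjusted p = 0.000356), and ITGB3, under 1 CPM in both lines, kept its call in 3 of the 12 leave-one-out fits.

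Among 15 mucins and trefoil factors, 2 had a higher and 2 a lower DOX effect in BON-1, a share of 26.7% called against 16.7% of all genes. MUC13, a transmembrane mucin, was at 14.6, 13.2 and 13.7 CPM with vehicle and 4.204, 4.39 and 4.05 with DOX in QGP-1. In BON-1 it was at 192, 184 and 183 and 219, 223 and 248, and the difference was 2.02 (adjusted p = 3.84e-11). TFF1, a trefoil peptide, was at 30.6, 24.6 and 27.4 CPM and then 12.5, 10.7 and 11.1 in QGP-1. BON-1 levels were 342, 341 and 314 and then 373, 357 and 359.7, a difference of 1.40 (adjusted p = 1.23e-08). The secreted mucins MUC2 and MUC5AC, with negative differences, had at most 25 and 114 counts in any library, and MUC5AC lost its call in 6 of the 12 leave-one-out fits. For MUC2 DESeq2 gave no adjusted p, and with at least 10 counts in every library neither gene was tested.

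The share of called members was near or below the 16.7% of all genes in 6 lists, which were the S phase genes (16.3%), cholesterol synthesis (16%), lysosome and autophagy (15.6%), NF-kB and cytokine genes (14.3%), the ATF4 response (12.1%) and proteasome subunits (9.38%). Of 25 cholesterol synthesis genes 3 were lower and 1 higher. HMGCS1, SQLE and DHCR7 had differences of −0.68, −0.61 and −0.59 (adjusted p = 7.59e-05, 0.000546 and 0.00197), and MSMO1 went the other way at 0.44 (the call was lost without BON-1 vehicle replicate 1 or BON-1 DOX replicate 1). Of 19 fatty acid genes 2 were lower and 4 higher, a share of 31.6% called. The desaturase FADS2 was lower at −1.08 (adjusted p = 3.37e-06). ME1, ACSS2 and ACSL3 were among the higher at 0.67, 0.63 and 0.52 (adjusted p = 0.00158, 0.0125 and 0.00128). Of 19 genes of serine and one-carbon metabolism 4 were lower and 3 higher, a share of 36.8% called. PSPH, which fell in QGP-1 alone, stood at 0.60. MAT2A, which rose in QGP-1 alone, stood at −0.39 (the call was lost without QGP-1 vehicle replicate 1). Of 33 ATF4 response genes 3 were lower and 1 higher, which is near the share of all genes for the lower calls. WARS and SLC7A5 were lower at −0.54 and −0.52 (adjusted p = 0.00435 and 0.00426), as was SLC1A4 at −0.36, and VLDLR was higher at 0.41, with SLC1A4 and VLDLR losing their calls in 6 and 8 of the 12 leave-one-out fits. Of 32 lysosome and autophagy genes 3 were lower and 2 higher, with GAA and NPC2 at −0.78 and −0.74 and CTSL and SQSTM1 at 0.64 and 0.52 (adjusted p = 0.00118, 0.0132, 0.0124 and 0.00132). For NPC2 the call was lost without BON-1 vehicle replicate 2.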

How the data were processed

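Total RNA from triplicate cultures of each line and treatment was made into stranded mRNA libraries by the authors, who aligned the reads with STAR to GRCh38. For either line they deposited unnormalized read counts of genes and TPM values made from those counts. The STAR version, the counting program, its strand setting and its handling of multiply mapped reads are not given in the sources used here. Both count tables (28008 genes each) were joined by gene symbol, all 12 columns were matched to the labels, and 0 columns were left unused. The test on these counts was that of edgeR 4.0.16, run in R 4.3.3 (filterByExpr over 4 groups, TMM over 12 libraries, quasi-likelihood fit of 4 group means), with the interaction contrast as the only test of a difference and Benjamini-Hochberg adjustment. Standard errors are the effect divided by the square root of F, and intervals are at 95%. Deviations from group means of same-numbered libraries correlated by −0.014 to 0.043 between treatments, so the numbers were not treated as pairs. Replicates differed by more than sampling noise (chi-square per gene 5.72 to 28.2).

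Named genes were MUC1, the called genes with the largest differences within each pattern of response (at least 5 CPM in both lines, or under 1 CPM in 1 line), and up to 4 called members of each of 30 lists with the largest differences. Genes outside this rule are marked as such, and some genes within it are not reported here. The members and lists were chosen with earlier results of these data known. Alternatives were DESeq2 1.42.0, library totals, TMM within each line, other filters, thinning to the smallest library, the replicate block, a minimum absolute difference of 1, limma 3.58.1 on log2(TPM + 1) for mean TPM of at least 1, and leaving out each library. Leaving out structural RNAs was added after the data were seen. The code was tested on simulated data. Coordinates, lengths and pseudogenes are from GENCODE v44 (GRCh38) and promoters from RefSeq (GRCh38.p14).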

Additional observations from a re-analysis of the deposited data

Results flagged for a closer look

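The genes that lead each pattern of response are given here because the DOX effects of the 2 lines differed by the test of the difference itself (edgeR's quasi-likelihood interaction, adjusted p from 1.37e-12 to 0.0442). Values are DOX effects (log2) in BON-1 less those in QGP-1. Genes that rose in QGP-1 and fell in BON-1 were ALDH1A2 at −2.80, SST at −2.62, RGS4 at −2.42, MMP2 at −2.18 and CASZ1 at −2.06. Genes that fell in QGP-1 and rose in BON-1 were RNR2 at 3.29, TMEM156 at 3.25, FXYD6 at 2.71, RN7SL3 at 2.49 and GDF15 at 2.42.

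In QGP-1 alone, SYTL5 (−2.07), MGC12916 (−1.39), DLL4 (−1.38) and EGR1 (−1.21) rose, and CD9 (1.85), ERP27 (1.71), RN7SL2 (1.67) and CREB3L1 (1.65) fell. In BON-1 alone, SCARNA5 (2.78), STXBP5-AS1 (1.97), PLCG2 (1.87) and PRSS23 (1.61) rose, and SMAD9 (−2.44), GAL (−1.75), ADGRL3 (−1.72) and CHGA (−1.60) fell. Genes that moved in the same direction were NXPE2 (1.997), PCDHB2 (1.16), TPH1 (−1.78) and ADAMTS9 (−1.68).

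Genes under 1 CPM in 1 line were SLC6A19 (−6.18), NOSTRIN (5.88) and CX3CL1 (−5.84), which are low in QGP-1, and NAV3 (6.79), CES3 (−6.72) and FGFBP1 (6.51), which are low in BON-1. These 6 values are fitted against few or 0 counts, so their size depends on the prior count of the fit. All values given here kept their direction in the 12 fits that left out 1 library. SCARNA5, SLC6A19, CX3CL1, NAV3 and FGFBP1 lost their calls in some of these fits, and the other 31 genes kept theirs in all 12.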

How the results depend on the processing

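The count of called genes was 3320 with DESeq2 (2735 shared with the 2776), 2946 with library totals, 2837 with TMM within each line, 3080 of 23475 genes without a filter, 2893 of 12494 with at least 10 counts in every library, 2682 after thinning to the smallest library and 2838 without structural RNAs. The replicate number as a block gave 2773 calls (2596 shared). In these fits the counts by pattern of response stayed within 1.5 times those reported. A minimum absolute difference of 1 left 679 genes, 386 higher and 293 lower in BON-1. Leaving out 1 library gave 2114 to 2930 calls, 1076 to 1359 higher and 971 to 1700 lower, with 262 to 370 opposite, 676 to 1048 in QGP-1 alone and 757 to 1158 in BON-1 alone. Genes in the same direction numbered 145 to 252, with 145 without QGP-1 vehicle replicate 2. The share of higher calls was 42.0% without QGP-1 DOX replicate 1. In all 12 of these fits 1586 genes were called, of which 363 were opposite in the fit of all libraries. Fewer genes, 1056, kept the same pattern in all 12. Of these 124 were opposite, 407 in QGP-1 alone and 445 in BON-1 alone. MUC1 stayed uncalled, with differences of −0.28 to 0.38 over these fits (negative without QGP-1 DOX replicate 1, BON-1 vehicle replicate 3 or BON-1 DOX replicate 3) and −0.028 after thinning. On the TPM values its difference was −1.51, called lower in BON-1 (limma, adjusted p = 4.17e-05).

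On the TPM values limma called 8114 of 11822 genes, 54 higher and 8060 lower, with 4865 in QGP-1 alone and 3 in the same direction, and the median difference of all genes moved to −0.88. Structural, nucleolar and Cajal body RNAs held 83.6% of TPM in QGP-1 with vehicle and 75.8% with DOX, and 61.2% and 69.8% in BON-1, and TPM values of a library sum to a fixed total, so every other gene moves against this share. Among the genes of the naming rule, those with the opposite sign there included PCDHB2 −0.45, SOCS3 −0.045, BIRC3 −0.25, SOD2 −0.58, DUSP5 −0.058, CCNE2 −0.43, GMNN −0.50, UNG −0.55, CENPU −0.61, TNFRSF10B −0.17, MSMO1 −0.66, ME1 −0.44, ACSS2 −0.37, ACSL3 −0.57, SLC2A1 −0.52, CA9 −0.99, PSPH −0.48, VLDLR −0.46, HSPB1 −0.30, RPS18 −0.10, RPL9 −0.13, RPS6 −0.20, NDUFB5 −0.35, NDUFS4 −0.41, NDUFC2 −0.36, NDUFB9 −0.52, COX7B −0.29, COX7A2 −0.44, ATP5L −0.42, ATP5C1 −0.48, PSMA5 −0.49, PSMA2 −0.67, PSMA1 −0.74, CTSL −0.41, SQSTM1 −0.57, ABCC3 −0.086, LEF1 −0.23, LGR5 −0.20, KRT19 −0.016 and ITGA5 −0.017. Relative to the median of all genes, these lay above it except CA9. Relative list medians changed sign on the TPM values for S phase, fatty acid, glycolysis, proteasome, CDK inhibitor, WNT, epithelial and mesenchymal, and integrin lists, and in other fits for the hormone, NF-kB, CDK inhibitor, WNT, epithelial and integrin lists. With 3 libraries a group and the lower depth of BON-1, differences of genes under 1 CPM rest on few counts.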
